A study of Mus musculus with 6 samples.

Results

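The semaphorins, the plexins and the neuropilins were examined in cultured mouse cerebellar granule neurons (CGNs) in which the histone methyltransferase EZH2 had been inhibited. The members were all genes of the count tables with a symbol of semaphorin classes 3 to 7 (Sema3 to Sema7), of a plexin (Plxna, Plxnb, Plxnc or Plxnd) or of a neuropilin (Nrp1, Nrp2). This gave 31 of the 55341 genes, namely 20 semaphorins, 9 plexins and 2 neuropilins. Membership depends on the symbol alone, but the set was chosen with earlier results of these data known. The study followed H3K27me3, the repressive histone mark that EZH2 deposits, as CGNs mature. Poly(A) RNA was sequenced from 6 libraries, 3 from CGNs given the solvent DMSO and 3 from CGNs given the EZH2 inhibitor GSK-126, with replicates numbered 1 to 3 in each group and the label of day in vitro (DIV) 3. According to the study's methods, granule neuron progenitors were isolated by density gradient from cerebella of early postnatal CD1-IGS mice, cultures of both groups received the mitotic inhibitor AraC, and the drug was added at that day with RNA taken later in culture. A culture pools the cerebella of several pups and keeps other cell types, so a library is a cell mixture.

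Semaphorins are guidance cues that steer growing axons and migrating neurons. The class 3 proteins are secreted, those of classes 4, 5 and 6 span the membrane, and Sema7a is anchored to it by lipid. Plexins are the signalling receptors: they act on small GTPases and thereby on the cytoskeleton. Most class 3 semaphorins bind plexins of the A family through the co-receptors Nrp1 and Nrp2, whereas Sema3e binds Plxnd1 directly and class 4 members use mainly plexins of the B family. In the cerebellum, Sema6a and its receptor Plxna2 are known for the inward migration of granule cells, and Plxnb2 for the proliferation and migration of their progenitors.

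All 31 members had enough reads to be tested. With GSK-126, 6 members were higher, 4 were lower and 21 were not called by edgeR's quasi-likelihood test with the replicate number as a block and Benjamini-Hochberg adjustment over all 16729 genes tested (adjusted p below 0.05). Over all genes tested, 561 genes were higher (3.35%) and 851 were lower (5.09%). The 6 members that rose were the secreted ligands Sema3b, Sema3c, Sema3d and Sema3e, the co-receptor Nrp1 and the receptor Plxnd1. The 4 that fell were the membrane semaphorins Sema4c and Sema5a and the receptors Plxna1 and Plxnb1. The median log2 fold change was -0.07 over the 31 members and -0.0056 over all genes tested.

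Those calls rested on the pairing of libraries by replicate number. Libraries of the same number deviated together from their group means (Pearson's r across genes of 0.561, 0.634 and 0.487). Without the block, no gene of the whole table passed the adjusted threshold (0%), and 665 genes (3.98%) had an unadjusted p below 0.05, with 2 members, Sema3a and Sema3d, among them. The direction was the same in 3 of 3 pairs for 16 of the 31 members (51.6%) and for 42.3% of all genes tested. The groups overlapped for 9 of the 10 called members. Sema3d was the only member with every GSK-126 library above every DMSO library, and Sema3a the only one with every GSK-126 library below, a separation found for 4.72% of tested genes in each direction.

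**Figure D1:**
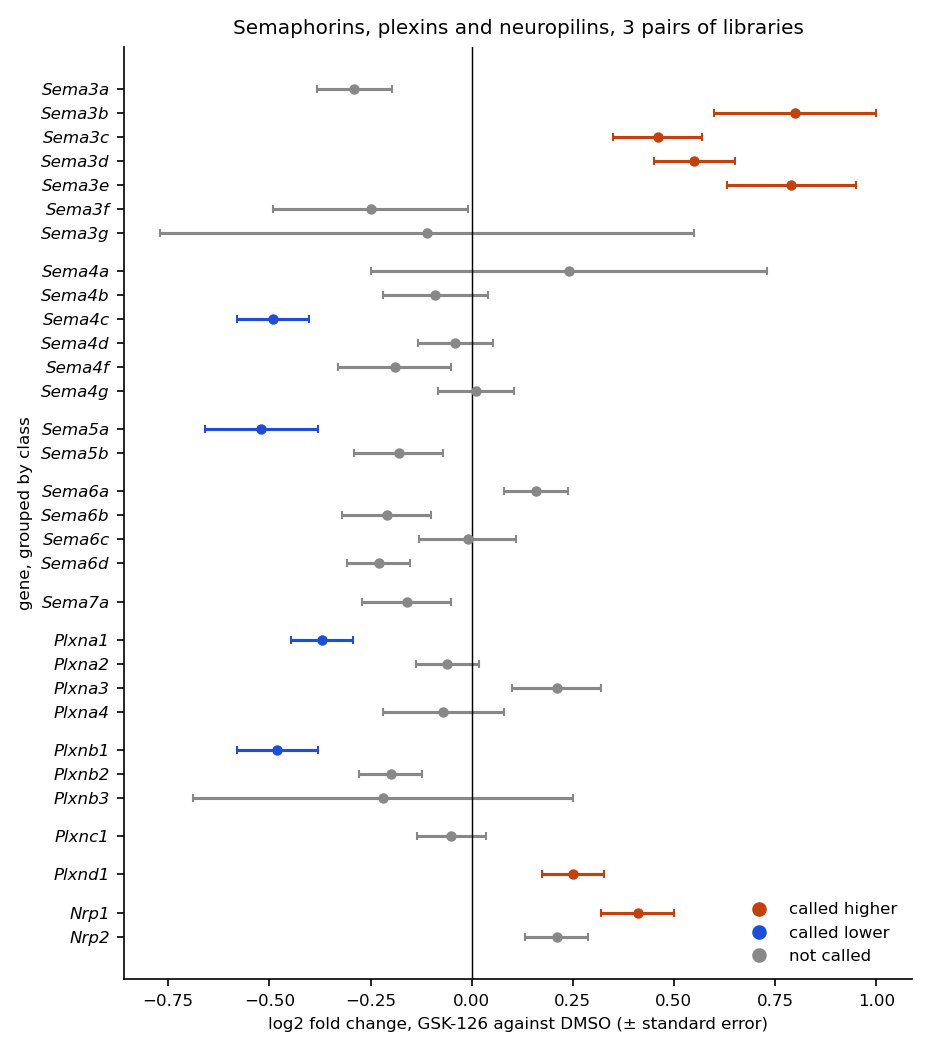
Log2 fold change of GSK-126 against DMSO (x axis, ± standard error, 3 pairs of libraries) for the 31 members (y axis, grouped by class). The 6 members called higher lie between 0.25 and 0.80 and the 4 called lower between -0.52 and -0.37. Among the 7 class 3 semaphorins, 4 were called higher and none lower, against 3.35% and 5.09% of all genes tested.

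Libraries held 7407189 to 13092763 counts on genes. The markers of granule neurons were abundant, but so were those of astroglia (Gfap, Aqp4 and others) and of mural cells and fibroblasts (collagens and others), so the label of granule neurons covers part of each library. Summed over 8 astroglial genes, the level was 2625 to 8097 CPM (reads scaled to a common library size by the trimmed mean of M-values, TMM) in DMSO and 2545 to 8397 CPM in GSK-126, with replicate 2 lowest in both groups. In such mixtures a smaller number of cells of a type and less RNA per cell cannot be told apart.

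Per kilobase of exon, the DMSO means covered a wide span, from 59.8 CPM per kilobase for Plxnb2 to 0.178 for Sema3g. Plxnb2, at 56.5 to 61.9 in the DMSO libraries, was above all others, followed by Plxna1 at 34.7 to 49.4. Next came Sema4c at 17.8 to 25.9 and Sema6a at 17.95 to 23.0, which overlapped each other, then Plxnd1 with a mean of 15.9 and Sema7a with 15.7. The most abundant neuropilin was Nrp2 with a mean of 9.30, and its range of 7.50 to 10.3 lay within that of Nrp1, 6.17 to 11.8. Among the class 3 ligands, Sema3d was highest with 7.84 to 9.27, just above Sema3a with 6.16 to 7.57. At the bottom, Sema3g, Sema4a and Plxnb3 had means below 0.4 CPM per kilobase, on as few as 3 counts in a library.

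**Figure D2:**
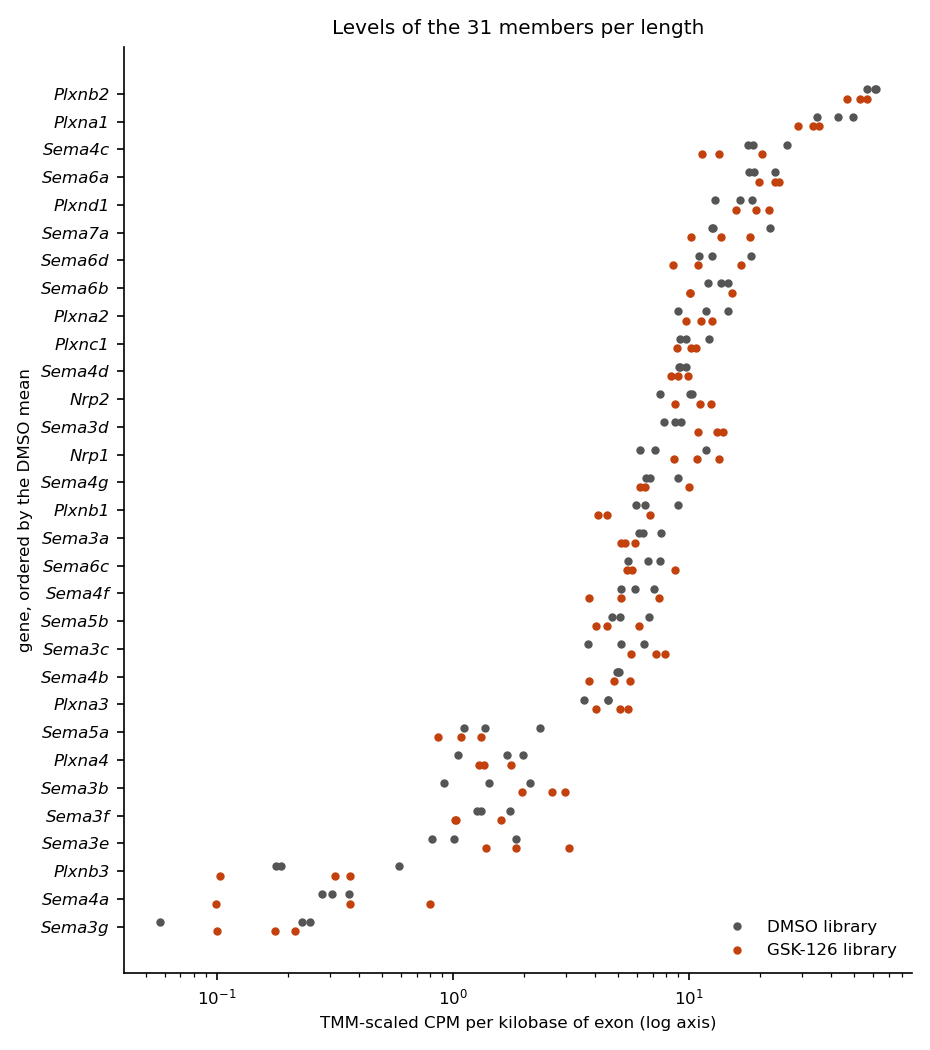
TMM-scaled CPM per kilobase of exon (x axis, log scale) of the 31 members (y axis, ordered by the DMSO mean) in each of the 3 DMSO and 3 GSK-126 libraries. Plxnb2 and Plxna1 stand highest in every library, and Sema3g, Sema4a and Plxnb3 form a separate low group with DMSO means of 0.178 to 0.318.

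The sequence before the transcription start was read for the members in the RefSeq promoter table (GRCm38.p6), which held a start for 26 of the 31. That start did not always match the annotated start of the gene. The largest distances were 271370 bases for Sema3a, 37064 for Sema4d, 1611 for Plxna2, 535 for Sema3c and 469 for Nrp1. Several windows, such as those of Plxnb1 and Sema3c, overlap exons of the member itself. All 26 windows were kept in the counts. The 250 bases upstream were counted for CG dinucleotides, the substrate of DNA methylation and a feature of many promoters that carry H3K27me3. The 26 members had a median of 15.5 CG, against 8 over 20595 genes. Of these members, 65.4% held 10 or more, against 46.1% of all genes. The 20595 genes include genes with too few reads to be tested, whereas all 26 members were tested. A comparison with tested genes alone was not made, so the difference cannot be taken as particular to this family. A link of these windows to H3K27me3 was not tested. Among the called members with a window, 3 of 5 that rose and 3 of 3 that fell held 10 or more, so that CG-rich windows occurred in both directions. The E-box, bound by basic helix-loop-helix factors such as those of granule neurons, was searched as the palindrome CAGCTG and, on either strand, as the variant CAGATG; neither shares letters with a CG. A match occurred in 23.1% of the members' windows and in 24.0% of all windows.

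The windows of the 4 called members whose upstream bases hold no annotated exon are shown, all of them of genes that rose, with each CG in capitals. They span the range from CG-poor to CG-rich, with 4 CG for Sema3d, 7 for Sema3e, 11 for Nrp1 and 16 for Plxnd1.
Sema3d, chr5:12382916-12383165, plus strand: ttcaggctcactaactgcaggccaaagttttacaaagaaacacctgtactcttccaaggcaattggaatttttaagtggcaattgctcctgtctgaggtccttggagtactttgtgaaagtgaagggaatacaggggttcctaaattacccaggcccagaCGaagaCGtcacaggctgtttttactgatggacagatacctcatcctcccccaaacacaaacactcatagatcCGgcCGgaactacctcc
Sema3e, chr5:14025026-14025275, plus strand: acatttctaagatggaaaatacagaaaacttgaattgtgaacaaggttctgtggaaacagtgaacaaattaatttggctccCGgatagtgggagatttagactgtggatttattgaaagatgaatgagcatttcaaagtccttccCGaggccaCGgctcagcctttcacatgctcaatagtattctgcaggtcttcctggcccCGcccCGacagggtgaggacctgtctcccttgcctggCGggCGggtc
Nrp1, chr8:128358823-128359072, plus strand: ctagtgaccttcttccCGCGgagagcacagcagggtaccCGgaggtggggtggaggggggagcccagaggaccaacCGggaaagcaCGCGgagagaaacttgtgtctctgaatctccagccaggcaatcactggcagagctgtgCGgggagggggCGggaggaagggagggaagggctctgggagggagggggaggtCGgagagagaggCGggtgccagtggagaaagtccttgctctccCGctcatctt
Plxnd1, chr6:115995006-115995255, minus strand: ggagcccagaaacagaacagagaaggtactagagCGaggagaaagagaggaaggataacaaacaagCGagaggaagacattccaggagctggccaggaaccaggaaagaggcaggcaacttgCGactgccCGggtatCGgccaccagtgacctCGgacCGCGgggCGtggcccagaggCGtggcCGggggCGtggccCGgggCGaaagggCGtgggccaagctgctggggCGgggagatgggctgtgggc
In the windows of Sema3d and Sema3e the CG were sparse and mostly toward the start site at the right end, whereas in that of Plxnd1 they were dense on that side.

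The class 3 semaphorins, the secreted ligands of this system, were examined first. Of their 7 genes, 4 rose and none was called lower, against 3.35% higher and 5.09% lower over all genes tested. Sema3d, at chr5:12383385-12588948 (GRCm38, plus strand), was read at 79.7, 74.7 and 67.4 CPM in DMSO replicates 1, 2 and 3, and at 93.8, 120.0 and 113 CPM in the corresponding GSK-126 libraries. The lowest treated library was thus above the highest control. Its log2 fold change was 0.55 (SE 0.10, edgeR adjusted p = 0.00084).

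Sema3e, the ligand of Plxnd1, lies on the same chromosome at chr5:14025276-14256689. It was read at 9.34, 7.55 and 17.2 CPM in DMSO and at 17.2, 12.8 and 28.9 CPM in GSK-126. Replicate 3 was highest in both groups, so that the groups overlapped, while the increase within pairs was even, with log2 ratios of 0.85, 0.73 and 0.73. This gave a log2 fold change of 0.79 (SE 0.16, adjusted p = 0.00278).

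Sema3c, at chr5:17574281-17730268, is known for its role in the outflow tract of the heart and as an attractant of some axons. Its DMSO libraries had 26.6, 46.0 and 36.7 CPM and its GSK-126 libraries 40.6, 56.2 and 51.4 CPM. The order of the replicates was the same in both groups, with replicate 1 lowest and replicate 2 highest. Sema3c rose by 0.46 on the log2 scale (SE 0.11, adjusted p = 0.0107), and the call was lost without replicate 1 (adjusted p = 0.0807).

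Sema3b, at chr9:107597674-107609229 on the minus strand, was among the less abundant members with 47 to 116 counts in the DMSO libraries. Its values were 6.81, 4.38 and 10.1 CPM in DMSO and 12.5, 9.37 and 14.2 CPM in GSK-126. Each pair rose, and DMSO replicate 3 lay above GSK-126 replicate 2. The log2 fold change of 0.80 (SE 0.20, adjusted p = 0.0155) was the largest of the 31, but the call was lost without replicate 1 (adjusted p = 0.0563) or replicate 2 (0.0924), and DESeq2 with the block gave no adjusted p for this gene.

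The remaining class 3 genes were not called. Sema3a, the repellent that collapses growth cones through Nrp1, had 85.4, 105 and 88.6 CPM in DMSO and 74.4, 71.6 and 81.6 CPM in GSK-126. Although the groups did not overlap, its log2 fold change of -0.29 (SE 0.093) had an adjusted p of 0.0605, which became 0.112, 0.401 and 0.0267 without replicates 1, 2 and 3. Without replicate 2 the log2 fold change was -0.16. Sema3f, which acts mainly through Nrp2, had 5.31 to 9.04 CPM over the 6 libraries and Sema3g 0.261 to 1.12 CPM.

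Because Sema3d and Sema3a moved apart, their ratio was computed within each library, per kilobase of exon, a pair chosen after the values were seen. Sema3d was 1.51, 1.15 and 1.23 times the level of Sema3a in DMSO and 2.03, 2.703 and 2.24 times in GSK-126. Summed over the 7 genes, class 3 transcripts amounted to 215, 245 and 229 CPM in DMSO and to 244, 279 and 295 CPM in GSK-126, higher in each pair with the groups just overlapping.

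**Figure D3:**
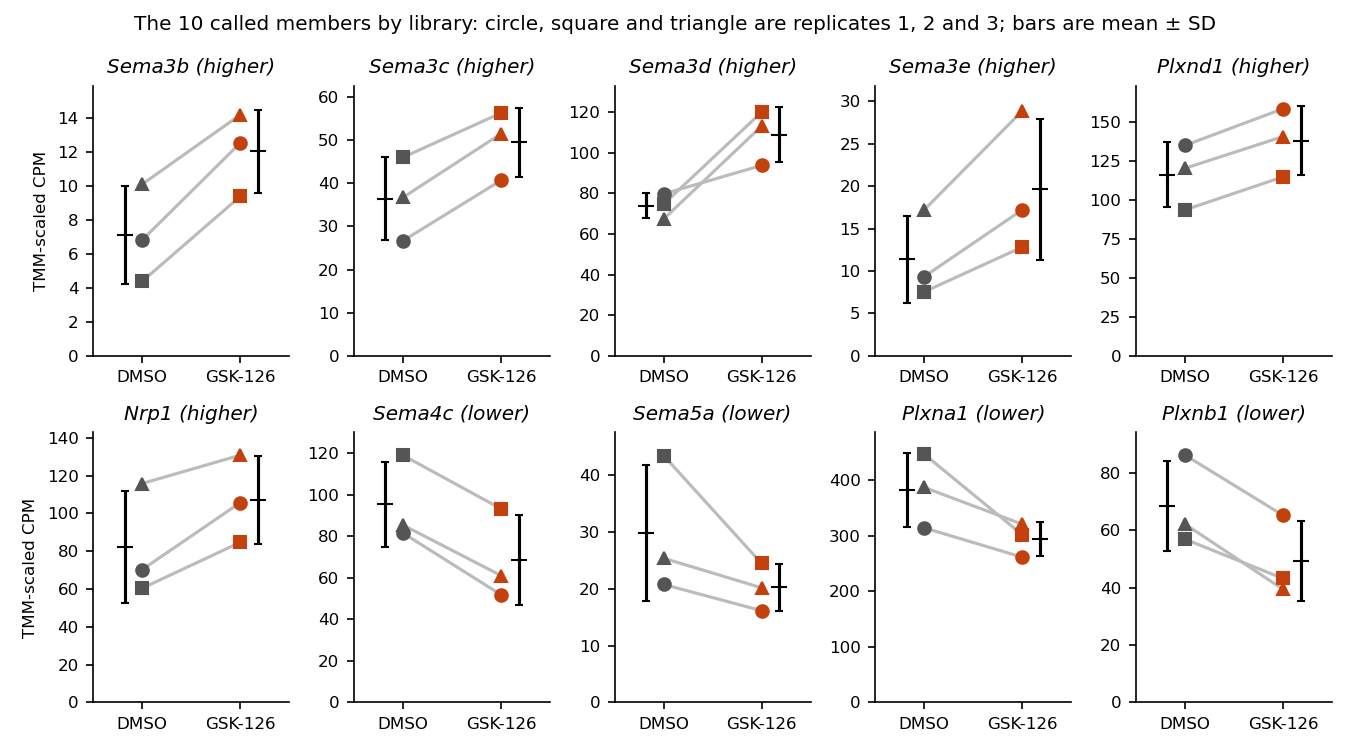
TMM-scaled CPM (y axis, from 0) of the 10 called members in DMSO and GSK-126 libraries (x axis); a line joins the libraries of a replicate number, symbols mark the number, and the bars beside the points are the mean ± SD (n = 3). All lines of a panel run the same way, while the groups themselves overlap in every panel but that of Sema3d.

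Among the receptors that these ligands use, Nrp1 rose and Nrp2 was not called. Nrp1, the co-receptor for Sema3a and for VEGF, had 70.2, 60.4 and 116 CPM in DMSO and 106, 84.7 and 131 CPM in GSK-126. Replicate 3 was highest in both groups and had the smallest change within a pair (log2 ratio 0.18, against 0.59 and 0.48). Nrp1 rose by 0.41 on the log2 scale (SE 0.090, adjusted p = 0.0057), and without replicate 1 the adjusted p was 0.0720. Nrp2 was also higher in 3 of 3 pairs, from 121.8, 88.8 and 119.7 CPM to 147, 103 and 131 CPM, with a log2 fold change of 0.21 (SE 0.078, adjusted p = 0.116).

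Plxnd1, the receptor of Sema3e, at chr6:115954811-115995005, had 135, 93.6 and 120.3 CPM in DMSO and 158, 115 and 141 CPM in GSK-126. Its change was the smallest of the 10 called (0.25, SE 0.076, adjusted p = 0.0472). It was also the least firm, since the call was lost without any of the 3 pairs (adjusted p from 0.0982 to 0.171) and with DESeq2 and the block (0.0831).

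Plexins of the A and B families carry most of the plexin reads. No member of either family was called higher, a call made for only 3.35% of all genes tested. Plxna1, at chr6:89316314-89362620, had 315, 447 and 387 CPM in DMSO and 262, 302 and 321 CPM in GSK-126. Only GSK-126 replicate 3 exceeded the lowest control. Plxna1 had a log2 fold change of -0.37 (SE 0.076, adjusted p = 0.00351).

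Plxnb1, a receptor of Sema4d, at chr9:109095389-109119917, had 86.2, 56.9 and 62.1 CPM in DMSO and 65.2, 43.2 and 39.4 CPM in GSK-126. Replicate 1 was highest in both groups, and its treated library lay above DMSO replicates 2 and 3. Plxnb1 had a log2 fold change of -0.48 (SE 0.10, adjusted p = 0.00301). Exons of Plxna1 overlap Gm26811 by 970 bases and those of Plxnb1 overlap Gm7628 by 257 bases, in each case on the opposite strand, and whether the counting used strand was not given in the sources used here, so reads of these stretches cannot be told apart.

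The other plexins were not called. Plxnb2 had 436, 478 and 470.4 CPM in DMSO and 436, 361 and 410 CPM in GSK-126 (log2 fold change -0.20, SE 0.078, adjusted p = 0.129), equal within the first pair and lower in the others, with adjusted p of 0.0496, 0.563 and 0.242 without replicates 1, 2 and 3 and a log2 fold change of -0.096 without replicate 2. Plxna2, the granule cell receptor of Sema6a, had 155 to 251 CPM in DMSO and 167 to 216 CPM in GSK-126, with a log2 fold change of -0.06 (SE 0.078). Plxna3 was higher in 3 of 3 pairs (log2 fold change 0.21, SE 0.11, adjusted p = 0.306). Plxna4, Plxnb3 and Plxnc1 had log2 fold changes of -0.07, -0.22 and -0.05, each with pairs in both directions. Summed over the 9 plexins, the level was 1251, 1470.4 and 1405 CPM in DMSO and 1225, 1181 and 1252 CPM in GSK-126.

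Of the 13 membrane-bound semaphorins, 2 fell and none rose, against 5.09% lower and 3.35% higher over all genes tested. A list of 13 is too small to tell none rising from such a share. Sema4c, a ligand of Plxnb2 and the third most abundant member per kilobase, lies at chr1:36548639-36558349 on the minus strand. It had 81.7, 119 and 85.5 CPM in DMSO and 51.9, 93.4 and 61.2 CPM in GSK-126. Replicate 2 was highest in both groups, and its treated library alone reached the control range. Sema4c had a log2 fold change of -0.49 (SE 0.089, adjusted p = 0.00108). Its exons overlap D430040D24Rik on the opposite strand by 334 bases, with the same limit on strand.

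Sema5a, which has thrombospondin repeats outside the cell, lies at chr15:32244810-32696341. It had 20.8, 43.4 and 25.4 CPM in DMSO and 16.1, 24.4 and 20.2 CPM in GSK-126. DMSO replicate 2 stood above the other 5 libraries, and that pair had the largest change (log2 ratio -0.82, against -0.35 and -0.32). The log2 fold change was -0.52 (SE 0.14, adjusted p = 0.0234). Without replicate 2 the adjusted p was 0.27, and with DESeq2 and the block it was 0.0729.

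The other 11 membrane-bound semaphorins were not called. Sema6d had 193, 116 and 132 CPM in DMSO and 176, 90.1 and 115 CPM in GSK-126, lower in 3 of 3 pairs with a log2 fold change of -0.23 (SE 0.078, adjusted p = 0.0779). Sema6a, the most abundant class 6 gene, had 158, 202 and 165 CPM in DMSO and 202, 209.8 and 174 CPM in GSK-126. It was higher in 3 of 3 pairs (log2 fold change 0.16, SE 0.079, adjusted p = 0.242). Sema4d, Sema4g and Sema6c lay closest to 0, with log2 fold changes of -0.04, 0.01 and -0.01 and SEs of 0.092 to 0.12. Sema4b, Sema4f, Sema5b, Sema6b and Sema7a had log2 fold changes of -0.09, -0.19, -0.18, -0.21 and -0.16, with adjusted p from 0.283 to 0.758. Of these, only Sema5b was lower in 3 of 3 pairs. For Sema4a, at 4 to 40 counts a library, the SE of 0.49 exceeded the log2 fold change of 0.24.

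Taking the call under every omission of a pair as a measure of firmness, 5 of the 10 called members passed in all 3 fits: Sema3d and Sema3e higher, and Plxna1, Plxnb1 and Sema4c lower. These 5 also passed with DESeq2 and the replicate block, together with Sema3c and Nrp1. All these fits share libraries and keep the block, so they are not independent of the first. Without the block, edgeR gave an adjusted p of 0.953 for each of the 5.

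The positions of the class 3 genes were then compared, since several lie close together. Sema3d, Sema3a, Sema3e and Sema3c occupy 5.35 Mb of chromosome 5 (chr5:12383385-17730268). The interval holds 16 other protein-coding genes, of which 3 were tested, with none called higher and 2 called lower. These were Pclo, a scaffold of the presynaptic active zone (log2 fold change -0.55, SE 0.072, adjusted p = 4.89e-05), and Cacna2d1, a calcium channel subunit (-0.35, SE 0.092, adjusted p = 0.0196). The third was Hgf, which was positive but not called (0.59, SE 0.31, adjusted p = 0.291), at means of 3.08 CPM in DMSO and 4.83 CPM in GSK-126. Between the semaphorins that rose thus lay 2 neighbours that fell and 1, Hgf, with a positive but uncalled change. On chromosome 9, Sema3b and Sema3f lie within 0.113 Mb; of 3 other coding genes between them 2 were tested and none was called.

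**Figure D4:**
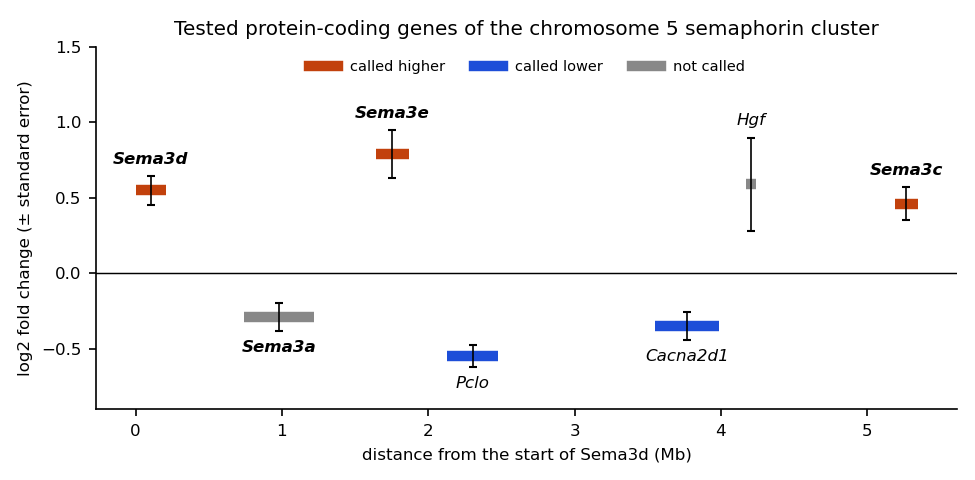
Log2 fold change of GSK-126 against DMSO (y axis, ± standard error) of the 7 tested protein-coding genes of the chromosome 5 cluster against the distance from the start of Sema3d in Mb (x axis); each bar spans a gene and members are in bold. Sema3d, Sema3e and Sema3c lie above 0 as called, Sema3a lies below 0 and was not called, and Pclo and Cacna2d1 between them were called lower. Hgf lies above 0 and was not called.

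The partners and effectors of the pathway were examined in lists written from general knowledge. Over all genes tested, 3.35% were called higher and 5.09% lower. Of 24 receptor partners and other ligands of neuropilins and plexins, 22 were tested, with 3 called higher and 2 called lower (median log2 fold change 0.10). Higher were Itgb1, the integrin subunit that serves Sema7a (0.29, SE 0.068, adjusted p = 0.010), Tyrobp, an adaptor of microglia (0.52, SE 0.14, adjusted p = 0.0273), and Vegfb, a ligand that binds Nrp1 (0.44, SE 0.13, adjusted p = 0.0348). The 2 that fell were the L1-family adhesion molecules Chl1 (-0.34, SE 0.075, adjusted p = 0.00521) and Nrcam (-0.28, SE 0.079, adjusted p = 0.0291), which associate with neuropilins. L1cam of the same family had a log2 fold change of -0.05 (SE 0.075). Timd2 and Trem2 were listed at 0 in all 6 libraries. For Trem2 this may be a missing value, since Tyrobp, its partner, had 12.6 to 62.6 CPM. For Timd2 a missing value and a true absence cannot be told apart.

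Of 35 intracellular effectors, 34 were tested, with 1 called higher and 2 called lower (median log2 fold change 0.01). The called share of 8.82% was near that of all genes tested (3.35% higher and 5.09% lower). Pak1, a kinase downstream of Rac, had 248, 476 and 287 CPM in DMSO and 165, 306 and 180.0 CPM in GSK-126, with nearly the same log2 ratio in each pair (-0.59, -0.64 and -0.67) and a log2 fold change of -0.63 (SE 0.070, adjusted p = 6.87e-06). Tiam1, an exchange factor for Rac, had 40.0, 76.0 and 44.5 CPM in DMSO and 28.8, 40.0 and 34.2 CPM in GSK-126, with every treated library below the controls, GSK-126 replicate 2 only just so (-0.60, SE 0.12, adjusted p = 0.00236). Dpysl5, a collapsin response mediator, had 130.1, 132 and 149 CPM in DMSO and 158, 176 and 163 CPM in GSK-126, with every treated library above the controls (0.28, SE 0.079, adjusted p = 0.0325). The other measured mediators of this family, Crmp1, Dpysl2 and Dpysl3, were not called, and Dpysl4 was listed at 0 throughout, which may likewise be a missing value. Rhoa, Rac1, Cfl1 and both Rock genes had log2 fold changes between -0.16 and 0.07 and were not called. Rac1 nevertheless had every treated library below the controls, at 380, 390 and 378 CPM in DMSO and 350, 352 and 354 CPM in GSK-126 (edgeR adjusted p = 0.326). Of its 4496 exon bases, 2309 overlap Daglb on the opposite strand, with the same limit on strand as for Plxna1.

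Markers of cell types were also read from the fit over all genes. For each marker list below, the share called over all genes tested was 3.35% higher and 5.09% lower. Of 9 markers of mural cells and fibroblasts, which also make class 3 semaphorins, 4 were higher (Pdgfrb, Acta2, Tagln and Col1a2) and none lower. All 9 had positive log2 fold changes, and their summed level went from 7729 to 10422 CPM in DMSO to 8937 to 11380.0 CPM in GSK-126. Most of this sum came from Col1a1, Col1a2 and Col3a1, with DMSO means of 2970, 2242 and 2482 CPM. Col1a1 and Col3a1 were not called. Of 9 granule neuron markers, 5 were lower, among them Rbfox3, Etv1 and Cbln3, and 1 was higher (Tubb3), with sums of 3977 to 6169 CPM in DMSO and 3185 to 4929 CPM in GSK-126. Of 8 microglial markers 2 were higher (C1qa, C1qb), with sums of 198 to 422 CPM in DMSO and 279.9 to 518 CPM in GSK-126. For these lists, a part in the changes of the members was not tested.

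Endothelial cells are a known site of Plxnd1 and Nrp1. Of 9 endothelial markers, 8 were tested and none was called; their sum was 57.9 to 83.3 CPM in DMSO and 41.7 to 79.7 CPM in GSK-126, of which Cdh5 made up most, with 41.0 to 61.6 CPM in DMSO and 26.5 to 55.7 CPM in GSK-126. Pecam1 was at 1.21 to 1.74 CPM in DMSO, and Cldn5 was at 0 in 2 DMSO libraries and 1 GSK-126 library. Whether endothelial cells had a part in the changes of Plxnd1 and Nrp1 was not tested. Of 8 astroglial markers 1 was higher (S100b). Of 8 oligodendrocyte lineage markers 1 was higher (Mbp), with sums of 425 to 771 CPM in DMSO and 497 to 769 CPM in GSK-126. Of 7 tested Purkinje cell and interneuron markers 3 were lower (Gad1, Gad2 and Slc32a1), with sums of 197 to 227 CPM and 150.4 to 184 CPM. Of 6 tested markers of progenitors and dividing cells 1 was higher (Barhl1), with sums of 297 to 399.6 CPM and 335 to 436 CPM, while Atoh1 and Gli1 were too low to be tested.

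**Figure D5:**
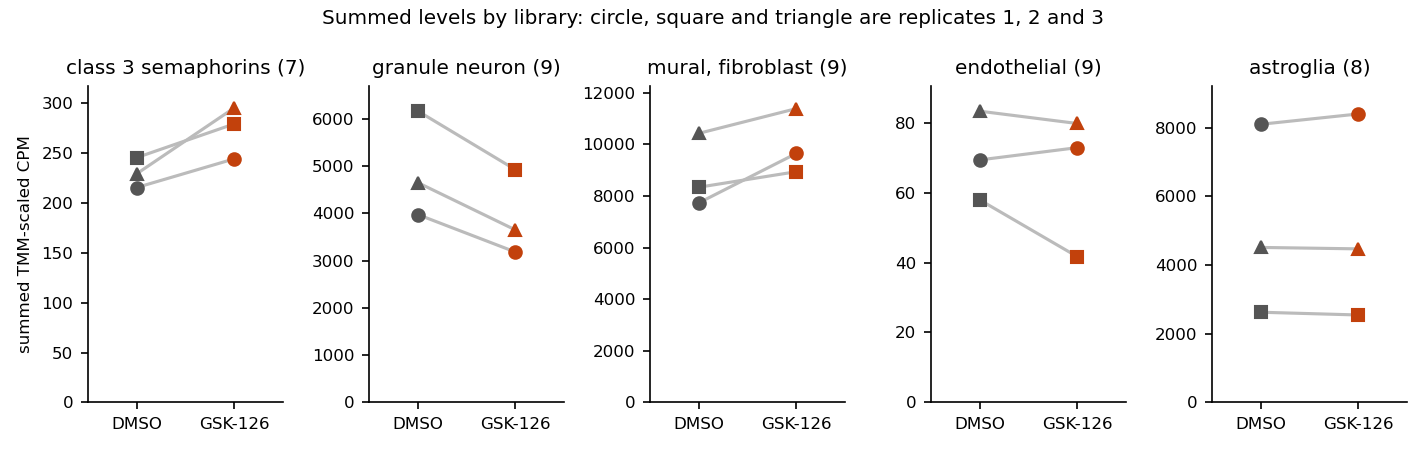
Summed TMM-scaled CPM (y axis, from 0) of the 7 class 3 semaphorins and of 4 lists of cell type markers in each DMSO and GSK-126 library (x axis); lines join libraries of a replicate number and the number of genes is in brackets. The class 3 sum and that of mural cell and fibroblast markers were higher in 3 of 3 pairs. The granule neuron sum was lower in 3 of 3. The endothelial and astroglial sums went both ways. Among the lists not plotted, the microglial and the progenitor sums were also higher in 3 of 3 pairs. The Purkinje cell and interneuron sum was lower in 3 of 3, and the oligodendrocyte sum went both ways. Collagens made up most of the mural cell and fibroblast sum.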

How the data were processed

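Per the labels and the study's methods, the authors trimmed reads with Trimmomatic 0.38, aligned them with STAR 2.7.2b to mouse GRCm38 and deposited raw exon counts per gene symbol with HTSeq; the strand setting was not given in the sources used here. Summary lines that name no gene (58.7% to 60.7% of each library) were left out. Counts were fitted with edgeR 4.0.16 in R 4.3.3 (filterByExpr, TMM scaling, quasi-likelihood test), with the replicate number as a block (biological coefficient of variation 9.74%, against 24.0% without it) and Benjamini-Hochberg adjustment at 0.05. SE is the log2 fold change divided by the root of F; pair ratios carry 0.5 CPM added. Libraries differed by more than sampling noise. All 55341 symbols matched GENCODE M21, which gave positions and exon lengths. Alternatives were other scalings and filters, DESeq2 1.42.0, no block and leaving out each pair. The members, lists and tests were chosen with earlier results of these data known. Every called member is given with all values, and of each pathway list the called genes up to 6 by smallest p. The test was checked on simulated counts. Replicates are separate cultures by the study's methods.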

Additional observations from a re-analysis of the deposited data

How the results depend on the processing

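With edgeR, all 10 called members stayed called without a filter, with at least 10 counts in every library, and with upper-quartile or total-count scaling; those scalings split all genes 727 higher to 698 lower and 714 to 707, against 561 to 851 with TMM. The replicate block decided the calls: without it edgeR called 0 genes higher and 0 lower over all genes, members and pathway lists alike, and DESeq2 called 20 and 1 genes but 0 members and 0 pathway genes, so no unblocked fit called a member. DESeq2 with the block called 372 genes higher. At an adjusted p below 0.01, edgeR called 242 genes higher and 474 lower, 3 members higher and 0 pathway genes higher. Leaving out a pair gave 337 to 558 genes higher and 496 to 719 lower, 2 to 5 members higher and 3 to 5 lower, and 1 to 5 pathway genes higher and 2 to 4 lower; replicate 1 set the low count of members higher and replicate 2 the other low counts.

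Sema6c, near 0, turned positive in several fits: 0.0084 with no filter, 0.011 with 10 counts in every library, 0.027 with upper-quartile and 0.028 with total-count scaling, 0.0059 without the block and 0.012 with DESeq2 without the block. Signs that changed when a pair was left out were those of members not called: log2 fold changes ranged from -0.12 to 0.13 for Sema6c, -0.13 to 0.019 for Plxna2, -0.23 to 0.049 for Plxna4, -0.73 to 0.14 for Plxnb3, -0.098 to 0.019 for Plxnc1, -0.64 to 0.47 for Sema3g, -0.38 to 0.80 for Sema4a, -0.20 to 0.055 for Sema4b, -0.11 to 0.046 for Sema4d, -0.33 to 0.049 for Sema4f and -0.074 to 0.093 for Sema4g. The cause was not tested. With 3 libraries a group, no two-sided exact permutation of single genes that ignores the pairing can go below p = 0.10. Swaps within the 3 pairs allow fewer arrangements still. The filter of 10 counts removed Plxnb3, Sema3g and Sema4a.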
